A study of Mus musculus with 14 samples.

Results

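The unfolded protein response and its ATF4 branch were read in whole mouse kidneys through 32 genes taken by name. The genes and their arms were chosen with earlier results of these data known, so counts over them describe this list only. All 32 were found once in each of the deposited tables, which share 23682 genes, and all 32 passed the filter on low counts. They fall into 4 arms. Of these, 15 are chaperones and folding enzymes of the endoplasmic reticulum (ER), 6 belong to ER-associated degradation and the translocon, 4 are the sensors together with the transcription factor gene Xbp1, and 7 belong to the ATF4 and CHOP branch.

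The kidneys came from 3 groups of mice, all given doxycycline. The 4 control mice carried only actin-rtTA, a doxycycline-dependent activator made in all tissues. The i-TERTci mice carried actin-rtTA and TetOp-TERTci, each heterozygous, so that doxycycline switched on TERTci, a catalytically inactive telomerase reverse transcriptase. Once these mice had become heavily proteinuric, 5 were injected daily with the vehicle DMSO and 5 with GSK2830371, which selectively inhibits the phosphatase WIP1, up to the end of the experiment. The treatment given for the controls names doxycycline alone, and an injection is not recorded for them. The controls were on doxycycline for 30 days. The DMSO mice were on it for 29 days, apart from replicate 4 at 38 days and replicate 5 at 31 days. In the GSK2830371 group replicates 1 and 5 were on doxycycline for 31 and 28 days and replicates 2, 3 and 4 for 49 days. The series concerns WIP1 in experimental collapsing glomerulopathy, a disease in which glomerular capillary loops collapse, and asks how the inhibitor changes the kidney transcriptome. The transgene is switched on in all tissues and the whole organ was sampled, so that in every result fewer cells of a type and less RNA per cell cannot be told apart. The labels give each library a replicate number of its own but do not state which animal it came from, and the p-values measure the spread between these libraries.

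In the ER, secreted and membrane proteins are folded by chaperones such as BiP (encoded by Hspa5) and by disulfide isomerases. When unfolded proteins accumulate, membrane sensors respond: ATF6 is cut to release a transcription factor, IRE1 (encoded by Ern1) splices the Xbp1 messenger, and PERK (encoded by Eif2ak3) phosphorylates the translation factor eIF2. The ATF6 and XBP1 branches are known for inducing chaperones and the machinery that returns misfolded proteins to the cytosol for degradation. Phosphorylated eIF2 lowers protein synthesis but favours translation of ATF4, which induces genes of amino acid supply and the factor CHOP (encoded by Ddit3). Other eIF2 kinases, which answer to amino acid shortage, haem or double-stranded RNA, feed into the same ATF4 step. In the kidney both podocytes and tubule cells have large secretory and membrane protein loads. Splicing of Xbp1, cleavage of ATF6 and phosphorylation of eIF2 are not measured by counts of reads per gene.

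The libraries held 48.5 to 64.6 M reads in genes in the controls, 47.2 to 48.8 M in the DMSO group and 48.4 to 49.4 M in the GSK2830371 group. Mitochondrial genes took 14.4% to 24.2% of these reads in the controls, 4.95% to 9.52% in the DMSO group and 5.07% to 8.35% in the GSK2830371 group. All 4 controls had Xist reads and no reads of the Y-linked gene Ddx3y, whereas DMSO replicates 1, 3 and 4 and GSK2830371 replicates 1 and 5 had the opposite pattern, so sex differed between the groups. Tert, which the transgene encodes, was at 117 to 183 normalised reads in the controls, 574 to 2732 in the DMSO group and 231 to 2546 in the GSK2830371 group. All 10 i-TERTci libraries thus lay above all controls for Tert, as the labels have it. The tissue label fitted the markers of proximal tubule, whose 8 genes summed to between 1316050 and 2093860 normalised reads in the controls.

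In i-TERTci kidneys with vehicle, most of the ER chaperones rose and the degradation arm split. Of the 32 genes, 16 were higher and 3 were lower than in the controls at an adjusted p under 0.05, which is 59.4% of them. Among all 18810 genes tested, 48.3% were called in this comparison, 25.2% higher and 23.1% lower. The share called was thus not far from that of all genes, and 16 of the 19 calls were rises. The median log2 difference of the 32 was 0.59, against 0.03 over all genes tested. The chaperones gave 10 higher and 0 lower of 15, with a median of 0.76. The degradation and translocon arm gave 2 higher and 3 lower of 6. Of the 4 genes in the arm of the sensors and Xbp1, 1 was higher. Of the 7 ATF4 and CHOP genes 3 were higher and 0 lower, with a median of 0.93. All DMSO libraries lay above all control libraries for 12 of the 32 genes and below them for 2, where the shares over all genes were 20.0% and 18.8%. Log2 differences are on the scale of log2(normalised reads + 1), where normalised reads are reads divided by the size factor of the library.

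With GSK2830371 the same number of chaperones was called. There were 15 genes higher and 2 lower than in the controls, 53.1% of the 32, and 46.3% of all genes were called in this comparison (24.3% higher, 22.1% lower). The median log2 difference was 0.54, against 0.01 over all genes tested. The chaperones again gave 10 higher and 0 lower, and the degradation and translocon arm 2 higher and 2 lower. The arm of the sensors and Xbp1 gave 1 higher, and the ATF4 and CHOP genes 2 higher. Medians were 0.82 for the chaperones and 0.42 for the ATF4 and CHOP genes. The degradation and translocon arm had a median of 0.01 (-0.25 with vehicle) and the arm of the sensors and Xbp1 0.35 (0.54 with vehicle). All libraries of this group lay above all controls for 15 of the 32 genes and below them for 0, against 20.8% and 19.6% of all genes. These comparisons share the same 4 controls, so they are not independent of each other.

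**Figure D1:**
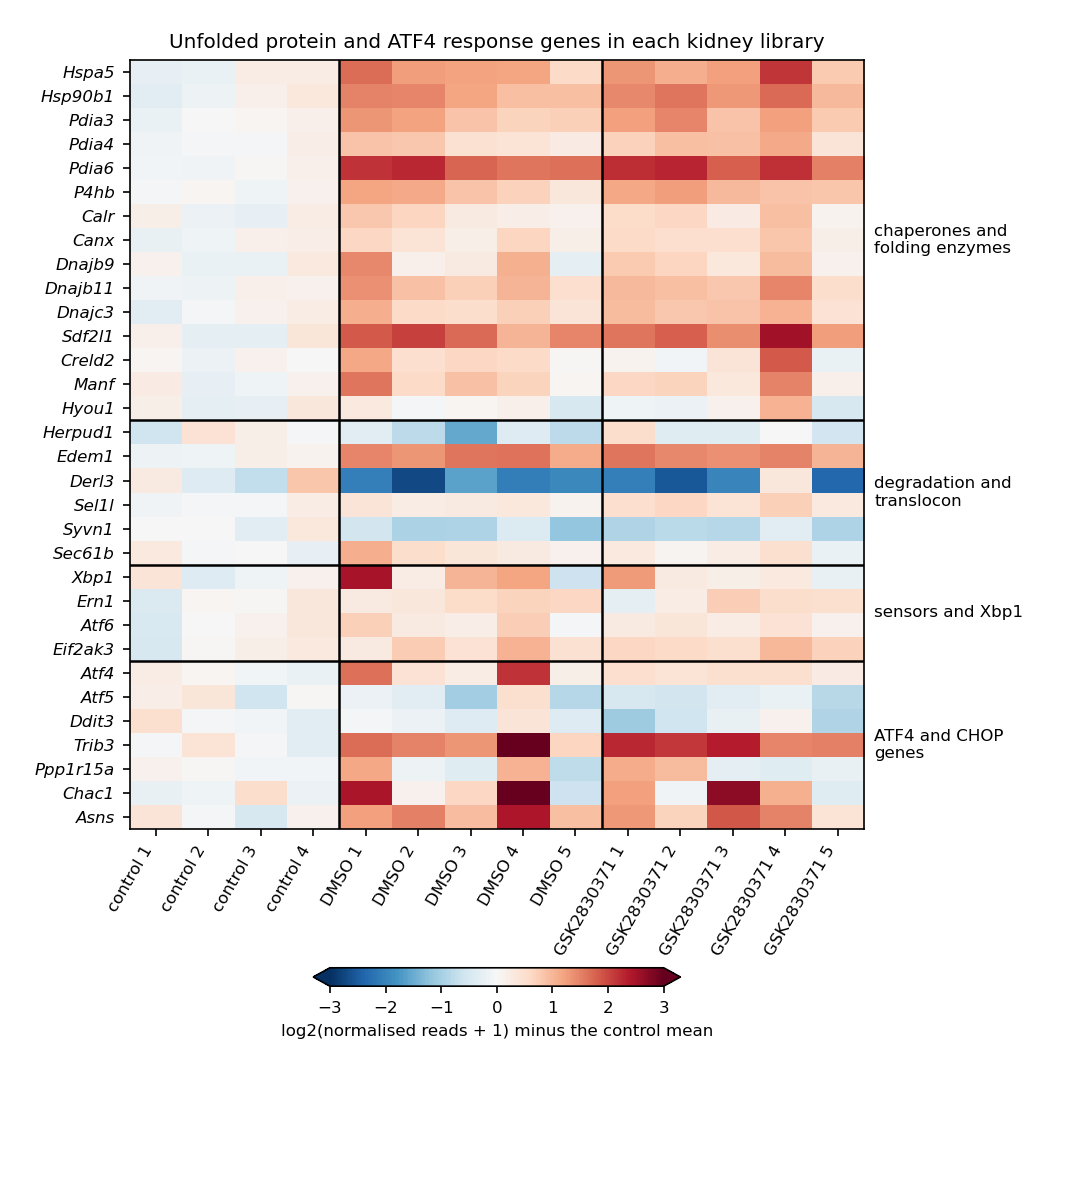
Level of each of the 32 genes in each of the 14 libraries, as log2(normalised reads + 1) minus the mean of the 4 controls (colour, limited to 3 in either direction), with rows ordered by arm and columns by group and replicate. Pdia6, Sdf2l1 and Edem1 are red in all 10 i-TERTci libraries, Derl3 is blue in all but GSK2830371 replicate 4, and the strongest red among the ATF4 and CHOP genes is in DMSO replicate 4.

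The counts changed when the groups were matched on Xist. In the GSK2830371 group the Xist-positive libraries are replicates 2, 3 and 4, all at 49 days, against 30 days in the controls. With the Xist-positive libraries alone (4 controls, 2 DMSO, 3 GSK2830371) 12 of the 32 genes were called in the DMSO comparison, 9 higher and 3 lower, and 19 in the GSK2830371 comparison, 18 higher and 1 lower. Over all 19321 genes tested there, 31.7% were called with vehicle (3116 higher, 3008 lower) and 40.4% with GSK2830371 (4062 and 3746). Hspa5, Hsp90b1, Pdia3, Pdia6, Dnajb11 and Sdf2l1 among the chaperones, Edem1, and Trib3 and Asns of the ATF4 branch were the 9 that stayed higher with vehicle, and Herpud1, Derl3 and Syvn1 stayed lower. With Xist as a covariate 15 and 17 of the 32 were called, against 36.2% and 40.4% of all genes.

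The main ER chaperones rose in both i-TERTci groups. Hspa5 encodes BiP, the HSP70 chaperone that also holds the sensors inactive. It gave 12923, 13262, 17913 and 17857 normalised reads in the controls, 49136, 36279.7, 35185, 34566 and 22828 in the DMSO group and 38397, 32414, 36047, 67171 and 26369 in the GSK2830371 group, each in order of replicate. Every i-TERTci library was above every control, GSK2830371 replicate 4 and DMSO replicate 1 were the highest, and DMSO replicate 5 was the lowest of the 10. The log2 difference from the controls was 1.18 (SE 0.26, adjusted p = 0.00173) with vehicle and 1.31 (SE 0.26, adjusted p = 0.000856) with GSK2830371. The gene lies at chr2:34771970-34777547 on the plus strand (GRCm38). The 250 bases before its RefSeq start hold 1 exact match to the ER stress response element (ERSE), a CCAAT box and a CCACG box set 9 bases apart to which NF-Y and ATF6 are known to bind. They are shown because Hspa5 is the standard reporter gene of this response (GRCm38.p6, chr2:34771840-34772089, plus strand). The fixed letters of the element are in capitals. The gene span given above is that of GENCODE and begins before the RefSeq start, so the element falls inside that span.
Hspa5 upstream: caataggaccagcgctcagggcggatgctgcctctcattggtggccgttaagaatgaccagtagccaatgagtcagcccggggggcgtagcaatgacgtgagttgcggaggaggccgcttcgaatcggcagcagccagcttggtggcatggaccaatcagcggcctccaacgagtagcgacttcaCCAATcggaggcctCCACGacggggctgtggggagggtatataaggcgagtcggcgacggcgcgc

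Hsp90b1 encodes GRP94, the HSP90 of the ER. Its libraries gave 10869, 12317, 15216 and 17039 normalised reads in the controls, 38495, 37877, 31005, 25469 and 25493 in the DMSO group and 37316, 41869, 33434, 44609.9 and 26795 in the GSK2830371 group. The groups did not overlap, and the rise was 1.19 (SE 0.21, adjusted p = 0.000267) with vehicle and 1.41 (SE 0.21, adjusted p = 7.79e-05) with GSK2830371. Pdia6, a disulfide isomerase known to act on the sensors IRE1 and PERK, had the largest rise of the 15. It gave 5175, 5147, 5649 and 6063 normalised reads in the controls, 24776, 26296, 18392, 16716 and 17179 in the DMSO group and 25394, 26907, 19178, 24984 and 15637 in the GSK2830371 group. The lowest i-TERTci library, GSK2830371 replicate 5, was still far above the highest control. The log2 difference was 1.88 (SE 0.20, adjusted p = 3.74e-06) with vehicle and 2.0 (SE 0.20, adjusted p = 2.29e-06) with GSK2830371. Pdia6 exons overlap those of Atp6v1c2 on the opposite strand by 50 bases, and that gene had 4.3% as many reads.

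Sdf2l1, a partner of the ER HSP40 proteins, rose nearly as far from a much lower level. It gave 519, 388, 387 and 600.3 normalised reads in the controls, 1679.5, 1924, 1519, 939 and 1283 in the DMSO group and 1418, 1614, 1229, 2658 and 1104 in the GSK2830371 group. Its lowest i-TERTci library, DMSO replicate 4, was above its highest control. The log2 differences were 1.61 (SE 0.25, adjusted p = 0.000127) and 1.71 (SE 0.25, adjusted p = 8.96e-05). Pdia4, another disulfide isomerase, rose less. It gave 4876, 4974, 5055 and 6037 normalised reads in the controls, 9449, 9116, 7154, 6971 and 6233 in the DMSO group and 8433, 9766, 9671, 11462 and 6765 in the GSK2830371 group. The groups did not overlap, although control replicate 4 and DMSO replicate 5 were close. The log2 differences were 0.56 (SE 0.17, adjusted p = 0.0154) and 0.80 (SE 0.17, adjusted p = 0.00171). Pdia4 did not pass with vehicle in the Xist-positive libraries (0.54, adjusted p = 0.0657), nor with GSK2830371 among libraries of 31 days or fewer (0.55, adjusted p = 0.0791). Here and below, that subset holds only replicates 1 and 5 of the GSK2830371 group. Both have Ddx3y reads, unlike the 4 controls, so in it days and sex cannot be told apart for this group.

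Pdia3, P4hb, Dnajb11 and Dnajc3 also rose in both groups, without overlap with the controls. Pdia3, the isomerase that works on glycoproteins, averaged 18962 ± 1969 normalised reads in the controls (SD, n = 4), 36980.3 ± 7664 with vehicle (n = 5) and 41431 ± 7942 with GSK2830371 (n = 5). Its log2 differences were 0.95 and 1.11. P4hb, which encodes the founding disulfide isomerase, differed by 0.84 and 1.01. The HSP40 genes Dnajb11 and Dnajc3 differed by 0.90 and 0.66 with vehicle and by 0.94 and 0.82 with GSK2830371. Over these 4 genes the adjusted p lay between 0.000303 and 0.00656. P4hb (0.74, adjusted p = 0.0518) and Dnajc3 (0.48, adjusted p = 0.0864) did not pass with vehicle in the Xist-positive libraries, and Dnajc3 did not pass with GSK2830371 at 31 days or fewer (0.71, adjusted p = 0.0505).

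Manf, which encodes a secreted and ER-resident stress factor, gave 3575, 2522, 2765 and 3311 normalised reads in the controls, 9243, 4498, 5560.3, 4821 and 3121 in the DMSO group and 4667, 4814, 3744, 8479 and 3363 in the GSK2830371 group. DMSO replicate 1 and GSK2830371 replicate 4 were far above the rest, and the lowest library of each i-TERTci group fell within the range of the controls. Its difference was 0.76 (SE 0.29, adjusted p = 0.0385) with vehicle, and it did not pass with GSK2830371 at 0.65 (adjusted p = 0.0727). The call with vehicle was lost without control replicate 2, 3 or 4 and without DMSO replicate 1, 3 or 4, with values from 0.55 to 0.80 and adjusted p from 0.0533 to 0.104, and likewise in the Xist-positive libraries (0.32, adjusted p = 0.431) and with Xist as a covariate (0.67, adjusted p = 0.133). With GSK2830371 it passed when DMSO replicate 1, DMSO replicate 5 or GSK2830371 replicate 5 was left out (0.66, 0.66 and 0.78, with adjusted p of 0.0358, 0.0492 and 0.0452). It also passed there in DESeq2 (0.71, adjusted p = 0.0465), in the fit of those groups alone (0.67, adjusted p = 0.0323) and in the Xist-positive libraries (0.84, adjusted p = 0.024). Exons of Manf overlap those of Dcaf1 on the opposite strand by 146 bases, and Dcaf1 had 33.5% as many reads. Canx, the membrane lectin chaperone calnexin, passed with GSK2830371, at 0.52 (SE 0.18, adjusted p = 0.0243) against 0.41 (adjusted p = 0.0673) with vehicle. It no longer passed with control replicate 1, control replicate 2 or GSK2830371 replicate 4 left out (0.44, 0.47 and 0.44, with adjusted p of 0.0756, 0.0734 and 0.0608), nor at 31 days or fewer (0.39, adjusted p = 0.237). With vehicle Canx passed once DMSO replicate 5 was left out (0.47, adjusted p = 0.047) and in DESeq2 (0.40, adjusted p = 0.0394).

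Of the 15 chaperone genes, Calr, Dnajb9, Creld2 and Hyou1 passed in neither comparison with the controls. Calr, the soluble lectin chaperone calreticulin, gave 45841, 35883, 33973 and 47476 normalised reads in the controls, 70383, 62692, 48877, 46218 and 44437 in the DMSO group and 58791, 61926, 47938, 75923 and 43522 in the GSK2830371 group. The groups overlapped, with differences of 0.41 (adjusted p = 0.12) and 0.49 (adjusted p = 0.07), and without GSK2830371 replicate 5 the second passed at 0.58 (adjusted p = 0.0405), as it did in DESeq2 at 0.49 (adjusted p = 0.0388). Dnajb9, an HSP40 gene that is a known target of XBP1, gave 3041, 2436, 2417 and 3397 normalised reads in the controls, 7537, 3127, 3382, 5881 and 2295 in the DMSO group and 4790.0, 4375, 3470.2, 5373 and 3033 in the GSK2830371 group. DMSO replicates 1 and 4 were the highest and DMSO replicate 5 was below every control, so the groups overlapped. The differences were 0.53 (adjusted p = 0.142) and 0.56 (adjusted p = 0.126), and without DMSO replicate 5 the first passed at 0.74 (adjusted p = 0.0317). The second passed when fitted on those groups alone (0.58, adjusted p = 0.0232) and in the Xist-positive libraries (0.65, adjusted p = 0.0244).

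Creld2, a stress-induced ER protein gene, gave 1242, 1069.6, 1303 and 1198 normalised reads in the controls, 2669, 1708, 1857, 1800.0 and 1229.9 in the DMSO group and 1297, 1131, 1558, 4273 and 1053 in the GSK2830371 group. GSK2830371 replicate 4 stood far above, and the other libraries of its group were near the controls. Its differences were 0.58 (adjusted p = 0.156) and 0.41 (adjusted p = 0.322). Without GSK2830371 replicate 4 the DMSO comparison passed at 0.58 (adjusted p = 0.0214). It also passed in the fit of those groups alone (0.59, adjusted p = 0.0299) and among libraries of 31 days or fewer (0.58, adjusted p = 0.0409). Hyou1, the large HSP70 that exchanges nucleotide on BiP, gave 7841, 5711, 5820.4 and 8835 normalised reads in the controls, 8546, 6781, 7246, 7673 and 4926 in the DMSO group and 6361, 6146, 7539.9, 14178 and 4971 in the GSK2830371 group. GSK2830371 replicate 4 was again the highest, and the rest of both i-TERTci groups overlapped the controls. The interval of its difference was -0.55 to 0.55 with vehicle (adjusted p = 0.997) and -0.47 to 0.63 with GSK2830371 (adjusted p = 0.83), both centred near 0.

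**Figure D2:**
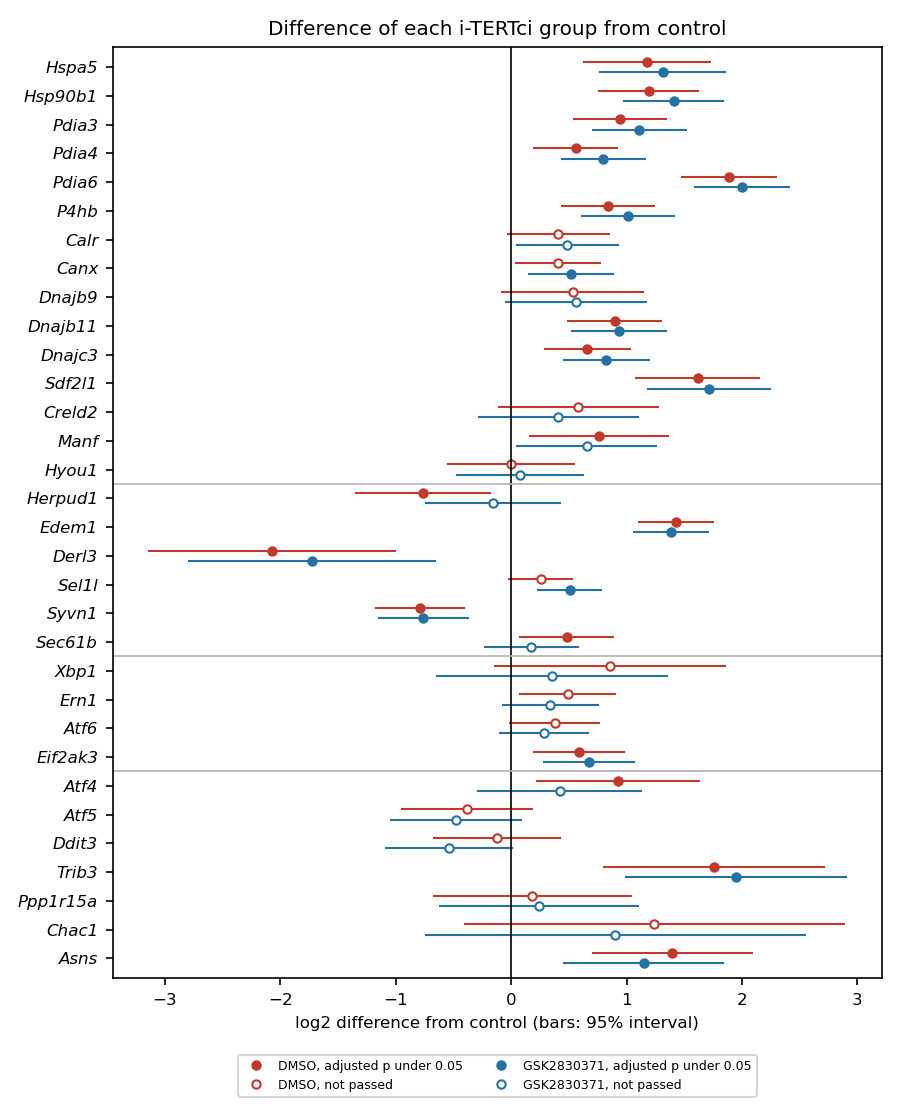
Log2 difference of each gene from the 4 controls in the DMSO group (red) and the GSK2830371 group (blue), with 95% intervals from limma; filled points passed an adjusted p of 0.05 and open points did not, and grey lines separate the 4 arms. Pdia6 is the farthest right with GSK2830371 at 2.0, Derl3 the farthest left with vehicle at -2.07, and the intervals are widest for Chac1.

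In the degradation arm single steps moved in opposite directions. Edem1, which encodes a lectin that hands misfolded glycoproteins on for degradation, averaged 2436 ± 279 normalised reads in the controls (SD, n = 4), 6578 ± 939.9 with vehicle (n = 5) and 6397 ± 927 with GSK2830371 (n = 5). It rose by 1.43 (SE 0.16, adjusted p = 5.85e-06) and 1.39 (SE 0.16, adjusted p = 7.92e-06), with no overlap. Derl3, a derlin of the channel through which proteins leave the ER, fell. It gave 203, 128, 100.3 and 301 normalised reads in the controls, 39.9, 24.8, 54.7, 39.1 and 43.1 in the DMSO group and 39.4, 28.1, 41.4, 212 and 31.7 in the GSK2830371 group. All 5 DMSO libraries and 4 of the GSK2830371 libraries were below every control, and GSK2830371 replicate 4 was inside the control range. The log2 differences were -2.07 (SE 0.51, adjusted p = 0.00349) and -1.72 (SE 0.51, adjusted p = 0.0115). With GSK2830371 the fall did not pass in edgeR's quasi-likelihood test (-1.36, adjusted p = 0.053) or in the Xist-positive libraries (-1.38, adjusted p = 0.106).

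Syvn1, which encodes the ubiquitin ligase HRD1, averaged 4884 ± 881 normalised reads in the controls, 2839 ± 613 with vehicle and 2884 ± 561 with GSK2830371. It fell by 0.79 (SE 0.18, adjusted p = 0.00254) and by 0.76 (SE 0.18, adjusted p = 0.00358) on the log2 scale. All DMSO libraries were below all controls, and GSK2830371 replicate 4 was just above the lowest control. Its exons overlap those of Mrpl49 on the opposite strand by 91 bases, and Mrpl49 had 47% as many reads. Sel1l, the partner of HRD1, was at 0.26 (adjusted p = 0.122) with vehicle, which did not pass, and rose by 0.51 (SE 0.13, adjusted p = 0.00563) with GSK2830371, where all 5 libraries exceeded all controls. Among libraries of 31 days or fewer that rise did not pass (0.42, adjusted p = 0.111).

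Herpud1, which encodes a membrane adaptor of the HRD1 complex, gave 13869, 28209, 23598 and 20402 normalised reads in the controls, 16722, 12118, 7214, 15827 and 12005 in the DMSO group and 30159, 16240.1, 16068, 20568 and 14065 in the GSK2830371 group. DMSO replicate 3 was the lowest and GSK2830371 replicate 1 the highest of all 14, and control replicate 1 was low among the controls. The difference was -0.76 (SE 0.28, adjusted p = 0.0329) with vehicle and -0.16 (adjusted p = 0.667) with GSK2830371. The fall with vehicle was lost without control replicate 2, 3 or 4 or without DMSO replicate 2 or 3, with values from -0.78 to -0.57 and adjusted p from 0.0533 to 0.11, and with Xist as a covariate (-0.85, adjusted p = 0.054). Sec61b, the small subunit of the translocon, was just inside the threshold with vehicle at 0.48 (SE 0.19, adjusted p = 0.0495) and did not pass with GSK2830371 at 0.18 (adjusted p = 0.473). Its call was lost without any of control replicates 2, 3 and 4, DMSO replicates 1, 2 and 3 or GSK2830371 replicates 1, 2 and 3, with values from 0.33 to 0.52 and adjusted p from 0.0544 to 0.149. It was also lost with limma voom, with no filter, in the fit of the 2 groups alone, at 31 days or fewer, with Xist as a covariate and in the Xist-positive libraries, with values from 0.34 to 0.53 and adjusted p from 0.0518 to 0.217. A near-identical copy of Sec61b, Gm10320, had 0.451% as many reads.

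Derl3 and Herpud1 are shown for contrast with Hspa5, since their upstream bases hold elements of the same kind although both fell with vehicle. The Derl3 gene lies at chr10:75893413-75895941 and Herpud1 at chr8:94386438-94395377, both on the plus strand. The Derl3 stretch (chr10:75893148-75893397) holds an ERSE on the opposite strand, so that its capitals read CCACG and CCAAT in reverse complement. The Herpud1 stretch (chr8:94386179-94386428) holds, in capitals, an ERSE-II (ATTGG and CCACG set 1 base apart) and, on the opposite strand, a C/EBP-ATF response element (CARE), the site TGATGNAA to which ATF4 is known to bind with a partner.
Derl3 upstream: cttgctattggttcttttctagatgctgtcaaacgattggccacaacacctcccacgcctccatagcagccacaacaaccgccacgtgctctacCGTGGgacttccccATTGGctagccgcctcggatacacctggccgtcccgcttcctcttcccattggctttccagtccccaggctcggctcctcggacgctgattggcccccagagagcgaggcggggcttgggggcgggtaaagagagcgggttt
Herpud1 upstream: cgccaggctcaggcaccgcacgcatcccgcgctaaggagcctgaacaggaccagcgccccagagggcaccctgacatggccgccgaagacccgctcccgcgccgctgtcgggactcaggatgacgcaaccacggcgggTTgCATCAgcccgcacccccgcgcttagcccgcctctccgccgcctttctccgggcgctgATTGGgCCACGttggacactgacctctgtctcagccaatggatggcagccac

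Among the sensors, Eif2ak3 alone passed. It encodes PERK and gave 1243, 1794, 1966 and 2128 normalised reads in the controls, 2098, 2979, 2357, 3586 and 2390.2 in the DMSO group and 2691, 2606, 2423, 3491 and 2839 in the GSK2830371 group. DMSO replicate 4 and GSK2830371 replicate 4 were the highest, control replicate 1 was the lowest, and DMSO replicate 1 was just below the highest control. The differences were 0.59 (SE 0.19, adjusted p = 0.0169) and 0.67 (SE 0.19, adjusted p = 0.00848). Without control replicate 1 the call with vehicle was lost (0.42, adjusted p = 0.0732), as it was among libraries of 31 days or fewer (0.48, adjusted p = 0.0539) and in the Xist-positive libraries (0.62, adjusted p = 0.0694).

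Ern1, which encodes IRE1, gave 893, 1251, 1239.5 and 1527 normalised reads in the controls, 1464, 1522, 1768, 1909.9 and 1855 in the DMSO group and 996, 1407, 2023, 1735 and 1686 in the GSK2830371 group. Control replicate 1 and GSK2830371 replicate 1 were low, and the groups overlapped. The difference with vehicle was 0.49 (adjusted p = 0.052), just outside the threshold, and 0.34 (adjusted p = 0.172) with GSK2830371. It passed with vehicle when control replicate 4, DMSO replicate 1, GSK2830371 replicate 1 or GSK2830371 replicate 3 was left out (0.60, 0.54, 0.49 and 0.49, with adjusted p of 0.0361, 0.0445, 0.0243 and 0.0455) and in the fit of those groups alone (0.50, adjusted p = 0.0336). With GSK2830371 it passed when GSK2830371 replicate 1 was left out (0.50, adjusted p = 0.0344). Atf6 gave 2078, 2879.6, 3131 and 3647 normalised reads in the controls, 4712, 3483, 3299.7, 4772 and 2823 in the DMSO group and 3477, 3698, 3374, 3875 and 3147 in the GSK2830371 group. DMSO replicates 1 and 4 were the highest and the groups overlapped. The differences of 0.38 (adjusted p = 0.103) and 0.29 (adjusted p = 0.219) did not pass, and the first passed without DMSO replicate 5 (0.48, adjusted p = 0.04).

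Xbp1, the messenger that IRE1 splices, varied widely between the DMSO mice, with an SD of 1.16 on the log2 scale against 0.33 in the controls and 0.55 with GSK2830371. It gave 10384, 6070.0, 7223 and 8594 normalised reads in the controls, 44036, 9213, 16008, 18063 and 5108 in the DMSO group and 19082, 9517, 8875, 9656 and 6825 in the GSK2830371 group. DMSO replicate 1 was far above all other libraries, DMSO replicate 5 was below the lowest control, and GSK2830371 replicate 1 was the highest of its group. The differences were 0.85 (adjusted p = 0.148) and 0.36 (adjusted p = 0.558). Without DMSO replicate 5 the DMSO comparison passed at 1.23 (adjusted p = 0.0202), and DESeq2 called it in all libraries at 1.19 (adjusted p = 0.0212). Among the Xist-positive libraries the estimate was on the other side of 0, at -0.20.

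**Figure D3:**
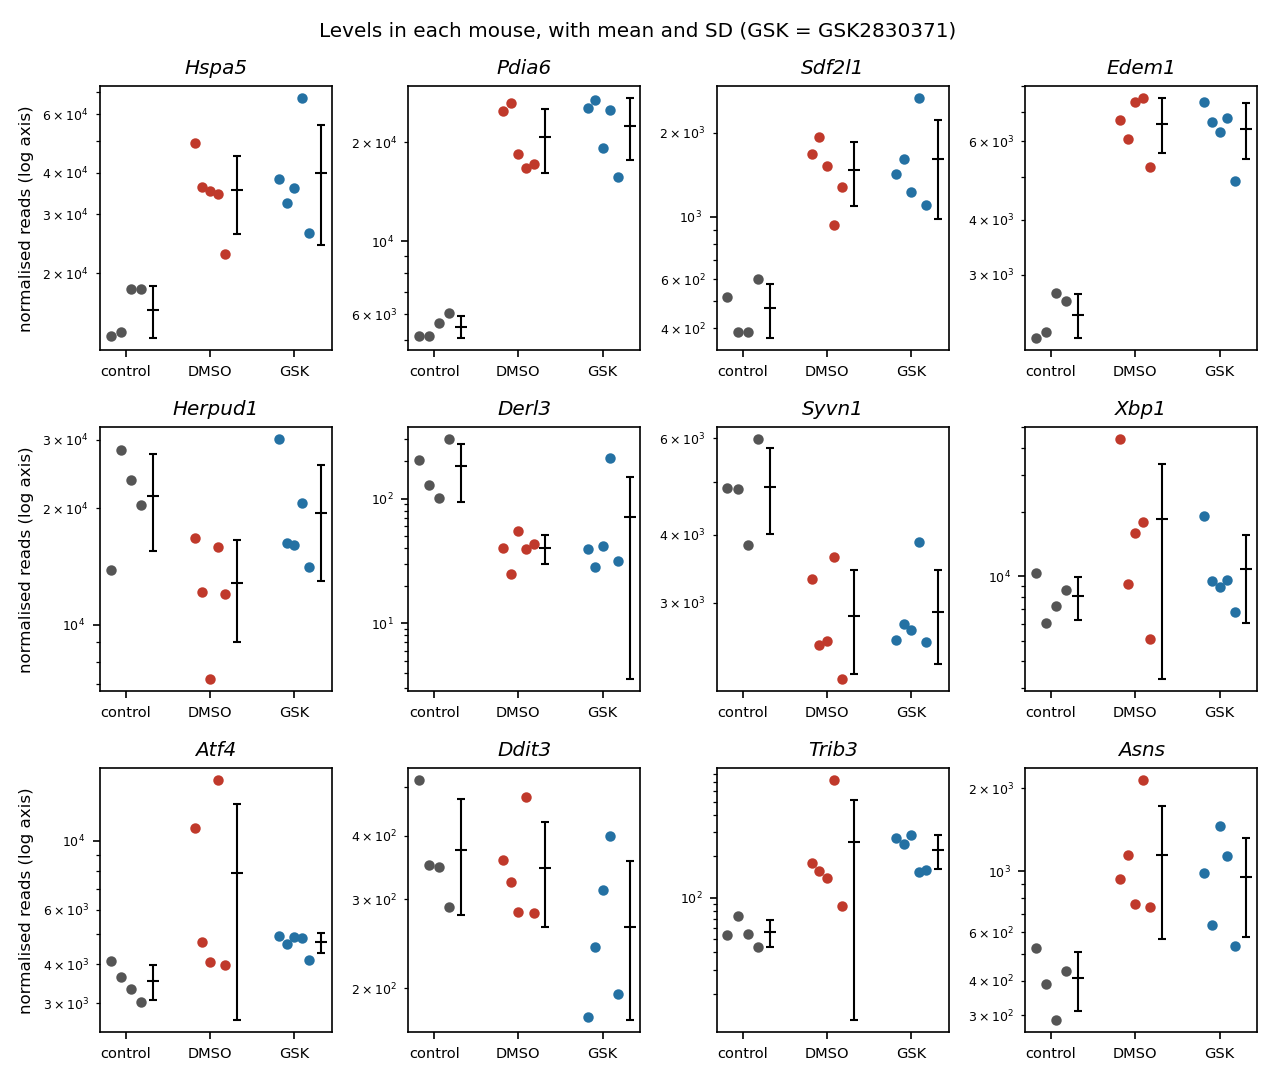
Normalised reads of 12 of the genes in each library (log axis, 1 panel per gene with its own range), with controls in grey, DMSO in red and GSK2830371 (GSK) in blue, and the mean with its SD beside each group. Hspa5, Pdia6, Sdf2l1, Edem1, Trib3 and Asns separate the i-TERTci libraries from the controls, Derl3 and Syvn1 are lower in all but GSK2830371 replicate 4, and Xbp1, Atf4 and Ddit3 overlap with the controls in at least 1 i-TERTci group.

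The ATF4 and CHOP branch was split between its genes. Atf4 itself gave 4113, 3647, 3339 and 3039 normalised reads in the controls, 11018, 4728, 4072, 15709 and 3990.2 in the DMSO group and 4958, 4669.8, 4895, 4883 and 4137 in the GSK2830371 group. DMSO replicates 1 and 4 were far above the controls, the other 3 DMSO libraries were near the controls, and the 5 GSK2830371 libraries were close together and just above the controls. On the log2 scale its SD was 0.92 with vehicle, 0.11 with GSK2830371 and 0.19 in the controls. The difference with vehicle was 0.93 (SE 0.33, adjusted p = 0.0321). With GSK2830371 it was 0.42 (adjusted p = 0.319), which did not pass although the libraries did not overlap. The call with vehicle did not stand when DMSO replicate 1 or 4 was left out (0.75 and 0.62, with adjusted p of 0.0775 and 0.0618), nor when control replicate 2, 3 or 4 was (0.94, 0.90 and 0.85, with adjusted p from 0.0586 to 0.0825). It was also lost in the Xist-positive libraries (0.31, adjusted p = 0.201), with Xist as a covariate (0.64, adjusted p = 0.183) and among libraries of 31 days or fewer (0.62, adjusted p = 0.0976). When each comparison was fitted on its own pair of groups, Atf4 passed with GSK2830371 (0.44, adjusted p = 0.02) and not with vehicle (0.94, adjusted p = 0.0748). It passed with GSK2830371 in the Xist-positive libraries too (0.47, adjusted p = 0.0339).

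Trib3, a pseudokinase gene induced by ATF4 and CHOP, had the largest rise of the branch. It gave 53.9, 73.3, 54.2 and 43.6 normalised reads in the controls, 178, 157, 139, 719.8 and 87.0 in the DMSO group and 271, 245, 288, 154 and 159 in the GSK2830371 group. DMSO replicate 4 was by far the highest, and all 10 i-TERTci libraries were above all controls. The differences were 1.76 (SE 0.45, adjusted p = 0.00501) and 1.95 (SE 0.45, adjusted p = 0.00273). Asns, which encodes asparagine synthetase, gave 527, 389.6, 288 and 434 normalised reads in the controls, 936, 1148, 763, 2138 and 744 in the DMSO group and 988, 639, 1453, 1131 and 536 in the GSK2830371 group. DMSO replicate 4 was again the highest, GSK2830371 replicate 5 was close to control replicate 1, and the groups did not overlap. Its differences were 1.40 (SE 0.33, adjusted p = 0.00275) and 1.15 (SE 0.33, adjusted p = 0.00995). The Asns gene lies at chr6:7675169-7693254 on the minus strand. The bases before its RefSeq start (chr6:7693210-7693459) are shown for their 1 CARE, in capitals, in the known amino acid response region of this gene. Here too the GENCODE span reaches past the RefSeq start, so the CARE falls inside that span.
Asns upstream: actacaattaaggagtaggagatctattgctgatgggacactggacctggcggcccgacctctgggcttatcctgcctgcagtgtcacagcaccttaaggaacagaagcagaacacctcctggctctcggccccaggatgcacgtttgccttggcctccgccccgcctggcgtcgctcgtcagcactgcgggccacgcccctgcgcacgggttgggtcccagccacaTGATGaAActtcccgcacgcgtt

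Ddit3, Chac1, Ppp1r15a and Atf5 passed in neither comparison. Ddit3, the CHOP gene, gave 516, 351, 348 and 289.6 normalised reads in the controls, 359, 325, 283, 478 and 282 in the DMSO group and 176, 241, 313, 400.1 and 195 in the GSK2830371 group. The groups overlapped, control replicate 1 was the highest of all and GSK2830371 replicates 1 and 5 were the lowest. The differences were -0.12 (adjusted p = 0.728) and -0.54 (adjusted p = 0.103), and the second passed as a fall without GSK2830371 replicate 4 (-0.70, adjusted p = 0.0323). It also passed among libraries of 31 days or fewer (-0.97, adjusted p = 0.0141), which in this group are only replicates 1 and 5. Ddit3 exons overlap those of Mars on the opposite strand by 68 bases, and Mars had 716% as many reads, so these values are uncertain where strand was not kept. The counting strand is not given in the sources used here.

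Chac1, which encodes a glutathione-degrading enzyme under ATF4, had the widest spread. It gave 77.0, 82.6, 130.4 and 78.9 normalised reads in the controls, 496, 99.0, 139, 1112 and 58.0 in the DMSO group and 211, 84.2, 584, 191 and 69.3 in the GSK2830371 group. DMSO replicates 1 and 4 and GSK2830371 replicate 3 were far above the controls, while DMSO replicate 5 and GSK2830371 replicate 5 were below them. The highest i-TERTci library had 19.2 times the reads of the lowest, against 1.52 times for Sel1l and 1.53 times for Edem1. The differences of 1.24 (adjusted p = 0.199) and 0.90 (adjusted p = 0.355) did not pass, and DESeq2 called the first at 2.04 (adjusted p = 0.0285).

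Ppp1r15a, which encodes the GADD34 subunit that leads a phosphatase to eIF2, gave 1424, 1345, 1228 and 1225 normalised reads in the controls, 2895, 1176, 1009, 2677 and 771 in the DMSO group and 2818, 2519, 1069, 1017 and 1124 in the GSK2830371 group. DMSO replicates 1 and 4 and GSK2830371 replicates 1 and 2 were far above the controls and the other 6 i-TERTci libraries were below all of them. The differences were 0.18 (adjusted p = 0.729) and 0.24 (adjusted p = 0.648). Atf5, another factor translated when eIF2 is phosphorylated, gave 1729, 1954, 1009 and 1554 normalised reads in the controls, 1339.7, 1210.1, 742, 2122 and 839 in the DMSO group and 1079.7, 1036, 1211, 1323 and 855 in the GSK2830371 group. DMSO replicate 4 was the highest of all and DMSO replicate 3 the lowest. The differences were -0.38 (adjusted p = 0.254) and -0.48 (adjusted p = 0.157), and without DMSO replicate 4 the first passed as a fall (-0.60, adjusted p = 0.0459). Its exons overlap Nup62 on the opposite strand by 82 bases, and Nup62 had 66.5% as many reads.

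By the count of genes at their highest, the chaperone arm and the ATF4 arm peaked in different mice. The share of all genes at their highest in each library was not computed. Genes read in the same mouse are not independent of each other. Among the 10 i-TERTci libraries, DMSO replicate 4, at 38 days, was the highest in 6 of the 7 ATF4 and CHOP genes (all but Ppp1r15a) and in 0 of the 15 chaperones. GSK2830371 replicate 4, at 49 days, was the highest in 9 of the 15 chaperones and in 0 of the 7 ATF4 and CHOP genes, and also in Derl3, Sel1l and Syvn1. DMSO replicate 1 was the highest in 6 genes, which were Dnajb9, Dnajc3, Manf, Sec61b, Xbp1 and Ppp1r15a. DMSO replicate 5 was the lowest in 16 of the 32 genes, among them 8 chaperones and 4 ATF4 and CHOP genes.

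Taking each library as the median over an arm of its log2 difference from the control mean, the chaperones stood at 1.31, 0.81, 0.72, 0.70 and 0.33 in DMSO replicates 1 to 5. They stood at 0.96, 0.90, 0.86, 1.23 and 0.43 in GSK2830371 replicates 1 to 5, and at -0.09, -0.16, 0.04 and 0.21 in the controls. All 10 i-TERTci libraries were thus above all 4 controls in this arm. The ATF4 and CHOP genes stood at 1.22, 0.14, 0.21, 2.16 and -0.38 in the DMSO group and at 1.11, 0.41, 0.48, 0.48 and -0.21 in the GSK2830371 group, against 0.19, 0.05, -0.08 and -0.19 in the controls. DMSO replicate 1 was high in both arms, at 1.31 and 1.22, and replicate 5 of each i-TERTci group was the lowest of its group in both. By the median of the ATF4 and CHOP genes, replicate 5 of each i-TERTci group was below all controls. In each of these libraries 3 of the 7 genes were still above the control mean, and Trib3 and Asns were above every control. Over all genes tested the same medians lay between 0.00 and 0.06 in the 14 libraries.

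**Figure D4:**
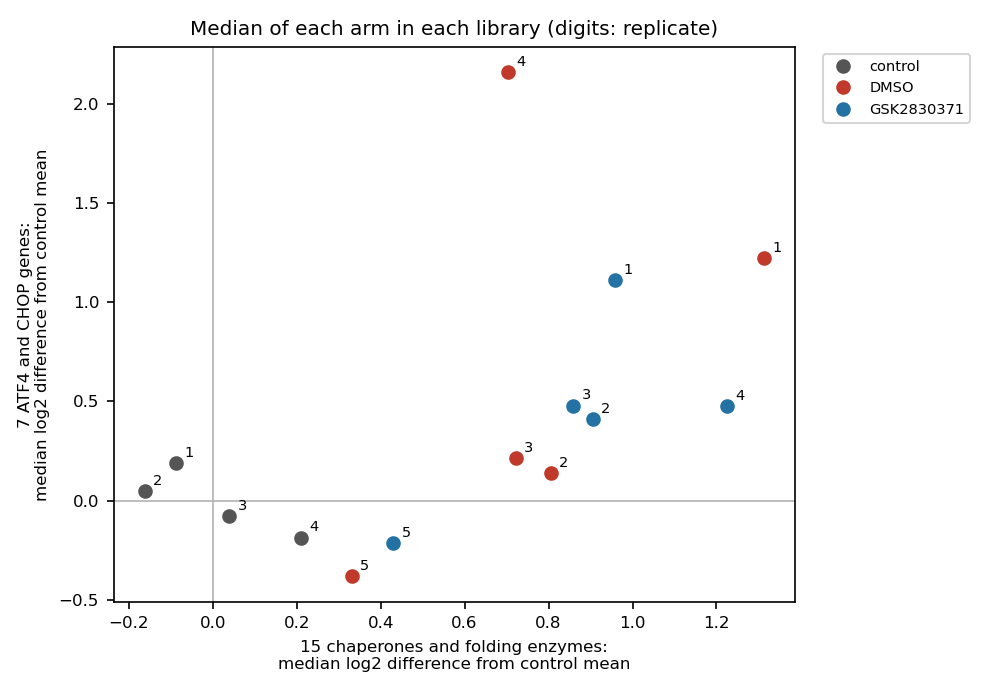
Median log2 difference from the control mean over the 15 chaperones and folding enzymes (horizontal) and over the 7 ATF4 and CHOP genes (vertical), with 1 point per library, coloured by group and numbered by replicate. DMSO replicate 4 is highest on the vertical axis at 2.16, DMSO replicate 1 and GSK2830371 replicate 4 are farthest right at 1.31 and 1.23, and the replicate 5 of each i-TERTci group lies below 0 on the vertical axis.

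GSK2830371 and vehicle were then compared directly within i-TERTci mice. None of the 32 genes was called by limma (0 higher, 0 lower), and of all genes tested 0.0% were. DESeq2 called 1 gene and edgeR 0 genes among all tested, and 0 of the 32 in either case. At an unadjusted p under 0.05 there was 1 of the 32, Herpud1, against 4.25% of all genes. The libraries of the groups did not overlap for 0 of the 32, against 0.484% of all genes. Herpud1 was higher with GSK2830371 by 0.61 (95% interval 0.05 to 1.16, unadjusted p = 0.0343, adjusted p = 0.994), where GSK2830371 replicate 1 was the highest library and the groups overlapped.

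The intervals give the range of group differences that the spread between libraries allows. They are not limits on the effect of the inhibitor, since the groups also differ in days on doxycycline and in sex. GSK2830371 replicates 2, 3 and 4 were at 49 days, and the longest time in the DMSO group was 38 days. Ddx3y reads were present in DMSO replicates 1, 3 and 4 and in GSK2830371 replicates 1 and 5. For the chaperones the estimates ran from -0.17 (Creld2) to 0.24 (Pdia4), with interval bounds between -0.83 and 0.66. They were above 0 for 13 of 15, where over all 18810 genes tested 9200 were above 0 and 9606 below. GSK2830371 replicate 4 was the highest i-TERTci library in 9 of these 15 genes. For Hspa5 the interval was -0.38 to 0.66, for Pdia6 -0.28 to 0.51 and for Edem1 -0.35 to 0.27. The other chaperones lay between, with Hsp90b1 at 0.22, Pdia3 at 0.17, P4hb at 0.17, Calr at 0.08, Canx at 0.11 and Dnajb9 at 0.03. On the same scale Dnajb11 was at 0.04, Dnajc3 at 0.16, Sdf2l1 at 0.10, Manf at -0.11 and Hyou1 at 0.08. In the degradation arm the estimates differed in sign, with Derl3 at 0.35, Sel1l at 0.25, Syvn1 at 0.03 and Sec61b at -0.30. The sensor kinases and Atf6 were close to 0, with Ern1 at -0.15, Eif2ak3 at 0.08 and Atf6 at -0.09. For the ATF4 and CHOP genes the estimates were below 0 for 5 of 7, with bounds between -1.89 and 1.22. Within this branch Trib3 stood at 0.19, Ppp1r15a at 0.06, Atf5 at -0.10, Chac1 at -0.34 and Asns at -0.25. Atf4 was at -0.51 (-1.18 to 0.16), Ddit3 at -0.42 (-0.94 to 0.10) and Xbp1 at -0.50 (-1.45 to 0.45). A log2 difference of 1 in either direction lay outside the interval for all 15 chaperones. It lay inside for Derl3, Xbp1, Atf4, Trib3, Chac1 and Herpud1.

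**Figure D5:**
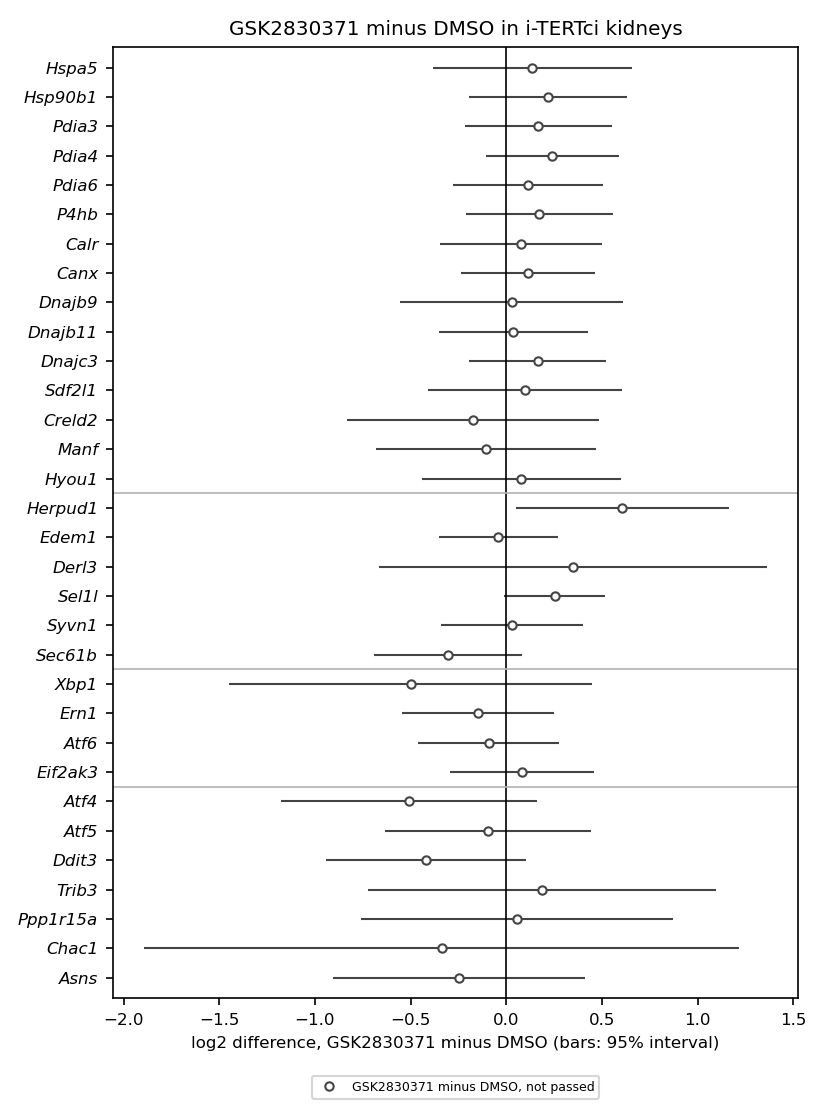
Log2 difference of each gene between GSK2830371 and DMSO in i-TERTci kidneys, with 95% intervals from limma and grey lines between the arms; no point passed an adjusted p of 0.05. Sel1l and Edem1 have the narrowest intervals, Chac1 the widest, from -1.89 to 1.22, and Herpud1 alone has an interval that leaves out 0.

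Sequence elements were counted in the RefSeq windows of 250 bases before to 50 bases after each gene's start (GRCm38.p6), searched on both strands. Of the 32 genes 29 have at least 1 such window, and Atf5 has 2, which gives 30 windows. ERSE, spelled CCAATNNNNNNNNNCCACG, was in 9 of the 30 windows (30%) and in 39 of all 32851 (0.119%). Of the 9, 7 belonged to chaperones, 2 to the degradation arm and 0 to the ATF4 and CHOP genes. With vehicle 4 of the 9 genes were higher, 2 lower and 3 did not pass. Of all 29 genes with a window, 15 were higher, 3 lower and 11 did not pass. Over all genes tested, 25.2% were higher and 23.1% lower. The element stood before genes that rose and genes that fell, and a link between element and direction was not tested. ERSE-II, spelled ATTGGNCCACG, was in 2 windows (6.67%, against 0.0365% of all), and the XBP1 site TGACGTGG was in 0 (against 0.676%). CARE, spelled TGATGNAA, was in 4 windows (13.3%, against 3.97%), of which 3 belong to the ATF4 and CHOP genes. Since the 32 genes were chosen by name as genes of this response, these shares describe the list, and enrichment was not tested.

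The sites are shown to let the elements of genes that rose be compared with those of genes that fell. Each is written on the strand that carries the motif, 5′ to 3′, with its fixed letters in capitals. Pdia6, Hspa5, Hsp90b1 and Dnajc3 rose with vehicle, Calr, Canx and Creld2 did not pass, and Derl3 and Syvn1 fell. The 9 bases between the boxes differed in every site.
Pdia6 ERSE: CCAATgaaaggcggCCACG
Hspa5 ERSE: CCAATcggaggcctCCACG
Hsp90b1 ERSE, distal: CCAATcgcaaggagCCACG
Hsp90b1 ERSE, proximal: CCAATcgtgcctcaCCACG
Dnajc3 ERSE: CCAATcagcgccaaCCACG
Calr ERSE: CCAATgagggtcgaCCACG
Canx ERSE: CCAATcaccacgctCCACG
Creld2 ERSE: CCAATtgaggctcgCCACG
Derl3 ERSE: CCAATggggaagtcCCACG
Syvn1 ERSE: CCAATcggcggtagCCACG

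The ERSE-II and CARE sites are given in the same way. Dnajb11, Asns and Trib3 rose with vehicle, Chac1 did not pass, and Herpud1, the only gene with both elements, fell. The CARE of Asns lies at -23 to -16 from its start and that of Trib3 at 15 to 22, after it.
Dnajb11 ERSE-II: ATTGGcCCACG
Herpud1 ERSE-II: ATTGGgCCACG
Asns CARE: TGATGaAA
Trib3 CARE: TGATGtAA
Chac1 CARE: TGATGcAA
Herpud1 CARE: TGATGcAA

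Per length, the genes of the response span a wide range. In normalised reads per kb of exon, Calr (14164), P4hb (11399), Herpud1 (9224) and Pdia3 (6041) had the highest mean levels in the controls, and Trib3 (26.5), Chac1 (56.3) and Derl3 (92.0) the lowest. On the same scale P4hb reached 20831 with vehicle and 23109.6 with GSK2830371 and exceeded Calr (18931 and 20007) in both groups. Pdia6 was at 1471 in the controls, 5519.9 with vehicle and 5987 with GSK2830371. Trib3, Chac1, Derl3 and Xbp1 had the widest spread between i-TERTci mice, where the highest library had 8.28 (Trib3) to 19.2 (Chac1) times the reads of the lowest.

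Other genes of the same pathways, from lists beyond the 32, were read with the same fit. Their counts stand against 48.3% of all genes called with vehicle (25.2% higher, 23.1% lower) and 46.3% with GSK2830371 (24.3% higher, 22.1% lower). Among 22 other ER folding genes 12 were higher and 3 lower with vehicle (68.2% called), and 12 and 2 with GSK2830371 (63.6%). The prolyl isomerase gene Fkbp7 had the smallest p among the rises, at 2.40 (SE 0.19, adjusted p = 3.37e-07) with vehicle, and the thioredoxin-domain gene Txndc5 among the falls, at -0.61 (SE 0.17, adjusted p = 0.00872). Among 19 other degradation genes 8 were higher and 2 lower in each comparison (52.6% called, near the share over all genes), led by Erlec1 (1.51, adjusted p = 7.35e-06), a lectin gene, and Aup1, of the ER and lipid droplets (-1.03, adjusted p = 0.000442). Among 25 genes of translocation, signal peptidase and vesicle transport 11 were higher and 3 lower with vehicle and 10 and 3 with GSK2830371 (56% and 52% called, also near it). Here Srp54a of the signal recognition particle rose by 2.58 (adjusted p = 1.81e-05) on the log2 scale, from a control mean of only 36.4 normalised reads. Near-identical copies were looked for only for the 32 genes, so reads shared with a copy of Srp54a were not checked. Sec31a of the COPII coat fell by 1.23 (adjusted p = 3.39e-05) on the same scale.

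On the ATF4 side, of 20 genes of amino acid supply 7 were higher and 1 lower with vehicle, and 6 and 2 with GSK2830371, which is 40% called in each and below the share of all genes (48.3% and 46.3%). The mitochondrial folate enzymes went apart, with Mthfd2 at 2.09 (SE 0.37, adjusted p = 0.000312) and Shmt2 at -1.34 (SE 0.18, adjusted p = 3.72e-05). Of 13 tRNA synthetase genes known as ATF4 targets 8 were higher and 0 lower with vehicle, led by Lars at 1.22 (SE 0.14, adjusted p = 9.37e-06), and 5 were higher and 1 lower with GSK2830371 (61.5% and 46.2% called). Of 17 measured genes of ATF4-linked stress and growth factors 8 were higher and 1 lower with vehicle, and 9 and 0 with GSK2830371 (52.9% called in each). Atf3, a stress-induced factor, averaged 84.5 ± 25.3 normalised reads in the controls (SD, n = 4), 1773 ± 987 with vehicle (n = 5) and 753 ± 361 with GSK2830371 (n = 5), a rise of 4.21 (SE 0.48, adjusted p = 1.27e-05) and of 3.04 (adjusted p = 0.00018). Stc2, which encodes a secreted stanniocalcin, was lower with vehicle at -1.25 (SE 0.47, adjusted p = 0.0395).

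Of 14 genes for eIF2 kinases and eIF2 itself 8 were higher and 3 lower with vehicle and 5 and 3 with GSK2830371, which is 78.6% and 57.1% called against 48.3% and 46.3% of all genes. Eif2ak2, the kinase that answers to double-stranded RNA, rose by 0.96 (SE 0.15, adjusted p = 0.000129), and Dele1, which relays mitochondrial stress to another eIF2 kinase, fell by 1.38 on the log2 scale (SE 0.15, adjusted p = 7.12e-06). Of 14 other sensors and membrane-bound factors 5 were higher and 5 lower with vehicle, and 3 and 4 with GSK2830371 (71.4% and 50% called). Creb3l1, a factor cut at the membrane as ATF6 is, fell by 1.92 (SE 0.27, adjusted p = 4.66e-05), and the kinase gene Map3k5 rose by 0.96 (SE 0.16, adjusted p = 0.000163). In these 8 lists the direct comparison of GSK2830371 with vehicle called 0 genes.

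Cell type markers were read in the same libraries. Their counts stand against 25.2% of all genes higher and 23.1% lower with vehicle, and 24.3% and 22.1% with GSK2830371. The lists are short, so a count of called markers is not a measure of cell numbers. The summed level of 8 proximal tubule markers ranged from 170128 to 1376730 normalised reads in the DMSO group and from 104056 to 670369 in the GSK2830371 group, with 5 and 6 of the 8 lower than in the controls. That of 8 injured tubule markers ranged from 63661 to 77237 in the controls, 187771 to 1113310 with vehicle and 387761 to 1224130 with GSK2830371. Of the 8, 5 were higher and 1 lower in each comparison. The lower one was Havcr1, at -2.76 (adjusted p = 0.00953) with vehicle and -2.42 (adjusted p = 0.0198) with GSK2830371. Among 10 neutrophil markers 9 were higher in each comparison, with sums of 157 to 256 in the controls, 946 to 29683 with vehicle and 545 to 19782 with GSK2830371. Macrophage markers had 4 of 8 higher in each and, with vehicle, 1 lower. Podocyte markers had 2 of 6 lower in each, with overlapping sums. Endothelial markers had 3 of 5 lower and 1 higher in each, and collecting duct markers 2 of 4 lower in each, with sums that overlapped the controls in both lists. For plasma cells, which carry much of the secretory machinery, 1 of the 9 tested markers was higher and 2 lower with vehicle, and the summed levels overlapped between all groups (3549 to 18123 in the controls, 4372 to 11919 with vehicle and 3600 to 11337 with GSK2830371). None of the plasma cell, macrophage or podocyte markers measured was at 0 in a whole group, and 1 neutrophil marker was at 0 in all 4 controls. The part of these markers, and of the lower mitochondrial share, in the changes of the 32 genes was not tested. With size factors computed without mitochondrial and the most abundant genes the counts of called genes were again 19 and 17.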

How the data were processed

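RNA of 14 mouse kidneys was sequenced. Per the submitters' processing notes, FastQC, Trimmomatic, STAR and DESeq2 were used with mm10. Read counter, annotation and strand setting: not given in the sources used here. Deposited by the authors were 2 tables, each of 9 libraries including the 4 controls, whose values are a signal of whole reads divided by 1 size factor per library, although named raw counts. Reads were recovered from the steps (100% whole within 0.001).

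After division by size factors (median of ratios, all 14 libraries), log2(normalised reads + 1) was tested with limma 3.58.1 (trended, robust variance, two-sided) on all 18810 genes that passed edgeR's filterByExpr, with Benjamini-Hochberg adjustment over all of them and a threshold of 0.05. Alternatives were count tests on the recovered reads (edgeR 4.0.16, which called 4827 genes higher and 4065 lower with vehicle, and DESeq2 1.42.0), limma voom, other scalings, pseudocounts and filters, subsets of libraries, and each library left out. Scripts were tested on simulated data.

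The members and lists were chosen with earlier results of these data known. All 32 genes are named in each comparison, and 23 of them are given in every library. Each pathway list is represented by its called gene with the smallest p in each direction with vehicle. Normalised reads per kb use GENCODE M21 exon lengths (GRCm38). Promoter sequences are RefSeq's, of GRCm38.p6, with none in the table for Manf, Atf6 and Hyou1.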

Additional observations from a re-analysis of the deposited data

Results flagged for a closer look

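In 5 of 96 groups checked, 1 library stood apart from the others of its group by more than 0.829 (4 libraries) or 0.71 (5 libraries) of the group's range (Dixon's test), and chance flags about 1 in 20. In 3 of the 5 the library was GSK2830371 replicate 4: Creld2 at 4272.7 normalised reads (the other 4 at 1053.1 to 1557.7), Derl3 at 212.2 (28.1 to 41.4) and Syvn1 at 3877.0 (2546.9 to 2748.6). In the controls, Pdia4 in replicate 4 was at 6037.4 normalised reads (the others at 4876.0 to 5055.2) and Chac1 in replicate 3 at 130.4 (77.0 to 82.6).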

How the results depend on the processing

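Over the 27 alternatives run, 14 of them leaving out 1 library, the called differences of the 32 genes reversed in 0 cases. The number of the 32 genes called with vehicle against the controls was 19 and ranged from 15 to 23 as single libraries were left out. It was 12 in the Xist-positive libraries (31.7% of all genes called there, against 48.3% in all libraries), 17 at 31 days or fewer (44.5%), 15 with Xist as a covariate (36.2%), 19 with edgeR (47.3%) and 22 with DESeq2 (50.7%). With GSK2830371 against the controls it was 17 (46.3%), and ranged from 16 to 19 in the same way, with 14 at 31 days or fewer (37.1%), 16 with edgeR (45.2%) and 19 with DESeq2 (48.5%). GSK2830371 against vehicle gave 0 throughout. The fit with replicate number as a block called 25, 20 and 0 of the 32, and 51% and 49.2% of all genes against the controls. The labels do not say that a number marks a pair. Same-numbered deviations correlated from -0.0605 to 0.335, over 0.1 in DMSO and GSK2830371 replicates 1, 2 and 5 and in control and GSK2830371 replicate 3. Each library was also set against each other group that had its number. In 16 of these 26 checks it correlated best with its own number, among them all 4 controls with GSK2830371. The checks take each pair of groups from both sides, so they are not independent. Each picks the best of 4 or 5 libraries, and whether 16 exceeds chance was not tested. Under the block Calr in both comparisons, Canx, Dnajb9, Xbp1, Ern1, Atf6 and Chac1 with vehicle, and Dnajb9 and Manf with GSK2830371 passed, and Herpud1 with vehicle did not (-0.71, adjusted p = 0.0611). Sex, days on doxycycline and treatment overlap in part across the groups, and their shares were not tested. Within the GSK2830371 group, replicates 2, 3 and 4 had Xist reads and were all at 49 days. Replicates 1 and 5 had Ddx3y reads and were at 31 and 28 days, so sex and days cannot be told apart there.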

Other observations

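Among the 17 measured genes of ATF4-linked stress and growth factors, 7 differed between GSK2830371 and vehicle at an unadjusted p under 0.05, against 4.25% of all genes, and 0 passed the adjustment. The members named next were chosen after their values were seen. Ddit4, an inhibitor of mTORC1 signalling, was at 1.43 on the log2 scale (SE 0.47, adjusted p = 0.994), Tsc22d3 at 1.05 (SE 0.33, adjusted p = 0.994), Rcan1, a calcineurin regulator, at -1.27 (SE 0.32, adjusted p = 0.994) and Atf3 at -1.16 (SE 0.45, adjusted p = 0.994). Against the controls, Rcan1 was at 1.15 with vehicle and -0.12 with GSK2830371, and Ddit4 at 1.26 and 2.69.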
